A study of Mus musculus with 2 samples.

Results

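The genes that make fatty acids and join them into triglyceride were followed in the mouse mammary gland across the first day of involution, when the gland regresses once suckling ends. The set held 35 genes, chosen by name as enzymes or regulators of 7 steps: acetyl-CoA supply, chain synthesis and release, elongation, desaturation, activation, glycerolipid assembly, and transcriptional or metabolic regulators. A probe set, the group of short probes by which the array reads 1 transcript, belonged to a gene if the platform annotation gave that gene's current or former symbol alone. By this rule 34 of the 35 genes were found, among 18193 named genes, with 85 probe sets. Acsl1 was not analysed here, since no probe set used here carried its symbol.

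Both groups were female CD1 mice, an outbred stock, with litters set to 6 pups and removed by force at day 10 of lactation. Day 0 glands were taken at weaning and day 1 glands 1 day later, and the labels name no genetic change or drug in either group. For each day, RNA from 5 mice was combined into 1 sample and read on 1 array (Affymetrix Mouse Genome 430 2.0), 2 arrays in all. For the age of the mice at sampling the labels give no value. Pooling hides the spread between mice, and with 1 array per day no difference below has a replicate check, an error between days or a test. The number of arrays limits the precision.

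In the lactating gland the secretory epithelium makes much of the milk fat itself. Citrate from the mitochondria or acetate is turned into cytosolic acetyl-CoA, acetyl-CoA carboxylase makes malonyl-CoA from it, and fatty acid synthase builds the chain, which in rodent mammary epithelium a separate thioesterase can release early as a medium-chain fatty acid. Chains are then lengthened or desaturated, activated to acyl-CoA, and joined stepwise to glycerol phosphate. The transcription factor SREBP-1, encoded by Srebf1, is a well-known activator of many of these genes. The same pathway runs in the adipocytes that surround the epithelium, and a whole gland holds both.

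Values are MAS 5 signals, intensities on a linear scale with both arrays at the same trimmed mean of 250. Signals below a floor of 77.7 units, the median of all signals, were set to it. A gene was measured if 1 array was above the floor, which held for all 34 found. Each gene is given by its probe set with the highest mean signal, and the ratio is log2 of day 1 over day 0. The spike-in hybridisation controls (15 probe sets) had a median log2 ratio of -1.16, from -2.14 to -0.50, while the median of all 13239 measured genes was -0.12. Ratios are therefore best read against other genes on the same arrays. The 3' over 5' signal of beta-actin, a sign of RNA quality, was 2.5 on day 0 and 1.51 on day 1, that of Gapdh 1.52 and 1.48, and that of pyruvate carboxylase 13.5 and 7.86. The part of this difference between the arrays in the ratios below was not tested. In tissue RNA, fewer cells of a type and less RNA per cell cannot be told apart.

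Most of the synthesis genes were lower on day 1, and the difference was unequal along the pathway. Of 34 genes, 19 were at least 2-fold lower and 0 at least 2-fold higher, against 13.3% and 10.4% of all measured genes. The median log2 ratio was -1.47. At least 4-fold lower signals were seen for 13 of 34 (1.83% of all measured genes; 1.96% were 4-fold higher), and at least 3-fold lower signals for 16 (4.33%; 3.85% were 3-fold higher). At 1.5-fold, 21 were lower and 1 higher, against 27.2% and 20.4% of all measured genes. Of the 34 ratios, 28 lay below the median of all measured genes.

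**Figure D1:**
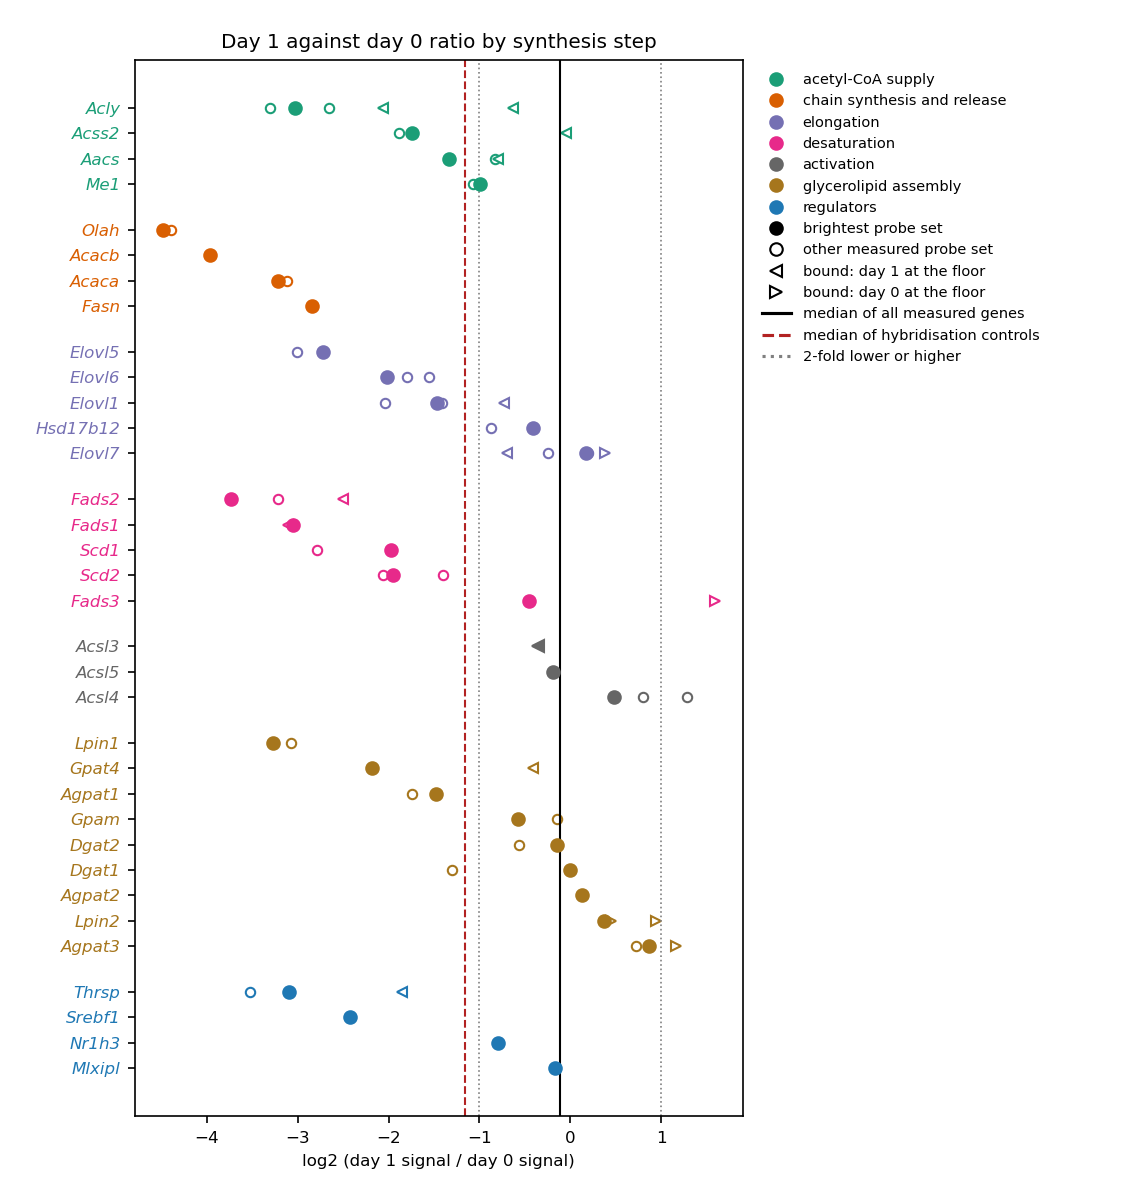
The log2 ratio of day 1 over day 0 signal (x axis) of every measured probe set of the 34 genes, grouped by step; filled symbols are the brightest probe set, open symbols the others, and triangles are bounds with 1 array at the floor. The 4 genes of chain synthesis and release all lie at or below -2.84, whereas the genes of glycerolipid assembly spread from -3.27 to 0.86.

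Chain synthesis and release was the lowest step, where 4 of 4 genes were past 2-fold and the median log2 ratio was -3.59. Olah, whose thioesterase ends chain growth on fatty acid synthase at medium length, had a signal of 30752.4 on day 0 and 1374.2 on day 1. It was 22.4-fold lower, and 4.47% of the day 0 signal was left. Its other probe set gave 26937.2 and 1287.4, nearly the same ratio (-4.39 against -4.48 log2). Acacb, the acetyl-CoA carboxylase at the mitochondrial outer membrane, whose product restrains fatty acid import into mitochondria, went from 5163.1 to 330.2, 15.6-fold lower. Acaca, the cytosolic carboxylase that commits acetyl-CoA to fatty acid synthesis, went from 7767.7 to 834, 9.31-fold lower, and its dimmer probe set from 986.7 to 113.8. Fasn, fatty acid synthase itself, went from 36915 to 5138.4, 7.18-fold lower. The enzyme that builds the chain thus kept 13.9% of its day 0 signal, against 10.7% for Acaca and 6.4% for Acacb. The log2 ratios of Fasn and Acaca (-2.84 and -3.22) differ by less than the pooled SD of 0.56 between probe sets of 1 gene, a spread over probe sets and not over mice. Fasn had 1 probe set, and Acacb 1 above the floor, so no other probe set bears on these values.

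Because these genes were lower together, their promoters were read for letters bound by known lipogenic factors. RefSeq windows (GRCm38.p6, 250 bases before to 50 after the start) were found for 29 of the 35 genes. The following lines give the 250 bases before the start, 5′ to 3′ on the gene's strand, for Olah, the gene of the set with the lowest ratio, and for the 3 genes at least 2-fold lower with 2 or more NF-Y boxes (CCAAT or its complement ATTGG) there; the boxes are in capitals.
Olah, chr2:3366570-3366819, minus strand: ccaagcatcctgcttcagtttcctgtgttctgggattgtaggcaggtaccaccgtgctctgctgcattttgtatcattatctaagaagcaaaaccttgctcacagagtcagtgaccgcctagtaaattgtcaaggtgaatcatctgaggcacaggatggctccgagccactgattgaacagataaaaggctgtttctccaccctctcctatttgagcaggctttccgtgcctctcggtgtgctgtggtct
Fasn, chr11:120824548-120824797, minus strand: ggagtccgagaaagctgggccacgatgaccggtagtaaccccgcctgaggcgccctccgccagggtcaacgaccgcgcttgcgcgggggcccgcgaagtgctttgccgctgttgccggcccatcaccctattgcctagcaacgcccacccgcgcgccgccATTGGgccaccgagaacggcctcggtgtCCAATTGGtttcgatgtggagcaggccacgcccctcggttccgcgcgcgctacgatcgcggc
Thrsp, chr7:97417551-97417800, minus strand: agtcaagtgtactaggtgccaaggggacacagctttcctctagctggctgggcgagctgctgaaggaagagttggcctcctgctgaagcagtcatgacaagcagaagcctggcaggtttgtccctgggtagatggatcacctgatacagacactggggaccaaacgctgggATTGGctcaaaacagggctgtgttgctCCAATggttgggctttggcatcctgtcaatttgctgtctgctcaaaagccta
Elovl5, chr9:77917115-77917364, plus strand: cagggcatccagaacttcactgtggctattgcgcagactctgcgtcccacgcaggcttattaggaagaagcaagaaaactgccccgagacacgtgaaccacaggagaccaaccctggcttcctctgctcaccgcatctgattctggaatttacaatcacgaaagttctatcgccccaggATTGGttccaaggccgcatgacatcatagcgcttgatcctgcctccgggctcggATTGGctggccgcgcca

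Fasn held 3 boxes, with first bases at -90, -62 and -59 from the start, the last 2 overlapping in 1 palindrome. Thrsp held 2, at -79 and -52, and Elovl5 held 2, at -71 and -17. More than 1 box was not particular to the lower genes. Among genes under 2-fold, Lpin2 held boxes at -233, -165 and -57, Hsd17b12 at -174 and -134, and Fads3 at -106 and -78. The window of Olah held none, so the gene with the lowest ratio and Fasn differ in these letters. Over both strands, CCAAT was in the windows of 18 of 29 genes (62.1%), against 41.1% of 27025 genes of the table. It was in 9 of the 15 genes with a window that were at least 2-fold lower and in 8 of the 13 that were under 2-fold, so its presence did not separate them. Counted by window, it was in 19 of 40, against 37.4% of all windows. The GC box GGGCGG was in 17 of 29 genes (38.2% of all), in 6 of the 15 lower and 10 of the 13 others.

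The letters of a sterol regulatory element, TCACNCCAC, were in 2 of 29 (1.44% of all), Mlxipl and Acsl1, and in 0 of the 15 lower genes. The E-box CACGTG was in 3 (8.09% of all), of which Elovl5 was lower, and the Stat site TTCNNNGAA in 1, Agpat1 (9.55% of all). None of the 5 motifs contains another, and a match or its absence describes only the letters of this window.

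In acetyl-CoA supply, 3 of 4 genes were at least 2-fold lower, with a median log2 ratio of -1.54. Acly, ATP citrate lyase, which cleaves exported citrate into acetyl-CoA, went from 31568.2 to 3860.1, 8.18-fold lower. Its probe sets with both signals over the floor ranged from -3.30 to -2.66 log2. Acss2, which makes acetyl-CoA from acetate, went from 2886.6 to 866.1, 3.33-fold lower. Aacs, which activates the ketone body acetoacetate for lipid synthesis, went from 1028.5 to 407.3, 2.53-fold lower, with -0.83 log2 at its next probe set. Me1, the cytosolic malic enzyme that supplies NADPH, went from 15954.8 to 8000.5. Its 1.99-fold difference lay just inside the 2-fold line, and its other probe set just outside (-1.07 log2). The ratio of Acly was lower than those of Acss2, Aacs and Me1, each by more than the pooled SD of 0.56. That SD is the spread of a single ratio over probe sets, and a difference between genes spreads wider. Slc25a1, the mitochondrial citrate carrier described below, had a log2 ratio of -1.90, near that of Acss2.

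In desaturation 4 of 5 genes were at least 2-fold lower, and the median log2 ratio was -1.97. The front-end desaturases, which act on polyunsaturated fatty acids, were the lowest. Fads2 went from 3306.9 to 249.7, 13.2-fold lower, and Fads1 from 13007.8 to 1565.1, 8.31-fold lower. Fads3, a relative of both, went only from 288 to 209.3 (-0.46 log2), and its next probe set pointed the other way, from 31.1, below the floor, to 233.7. Its direction is not settled by these probe sets.

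The stearoyl-CoA desaturases, which make monounsaturated fatty acids such as oleate, were lower by nearly the same factor. Scd1 went from 66824.3 to 17070.1, 3.91-fold lower, and Scd2 from 11458.5 to 2973.5, 3.85-fold lower, a difference between them of -0.023 log2. The day 0 signal of Scd1 was 61.5% of the highest on the array, and so bright a signal can be compressed. Its dimmer probe set went from 14113.1 to 2038.1 and had a log2 ratio of -2.79 in place of -1.97. Read by that probe set, Scd1 was lower than Scd2, whose 3 probe sets ranged from -2.06 to -1.40.

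**Figure D2:**
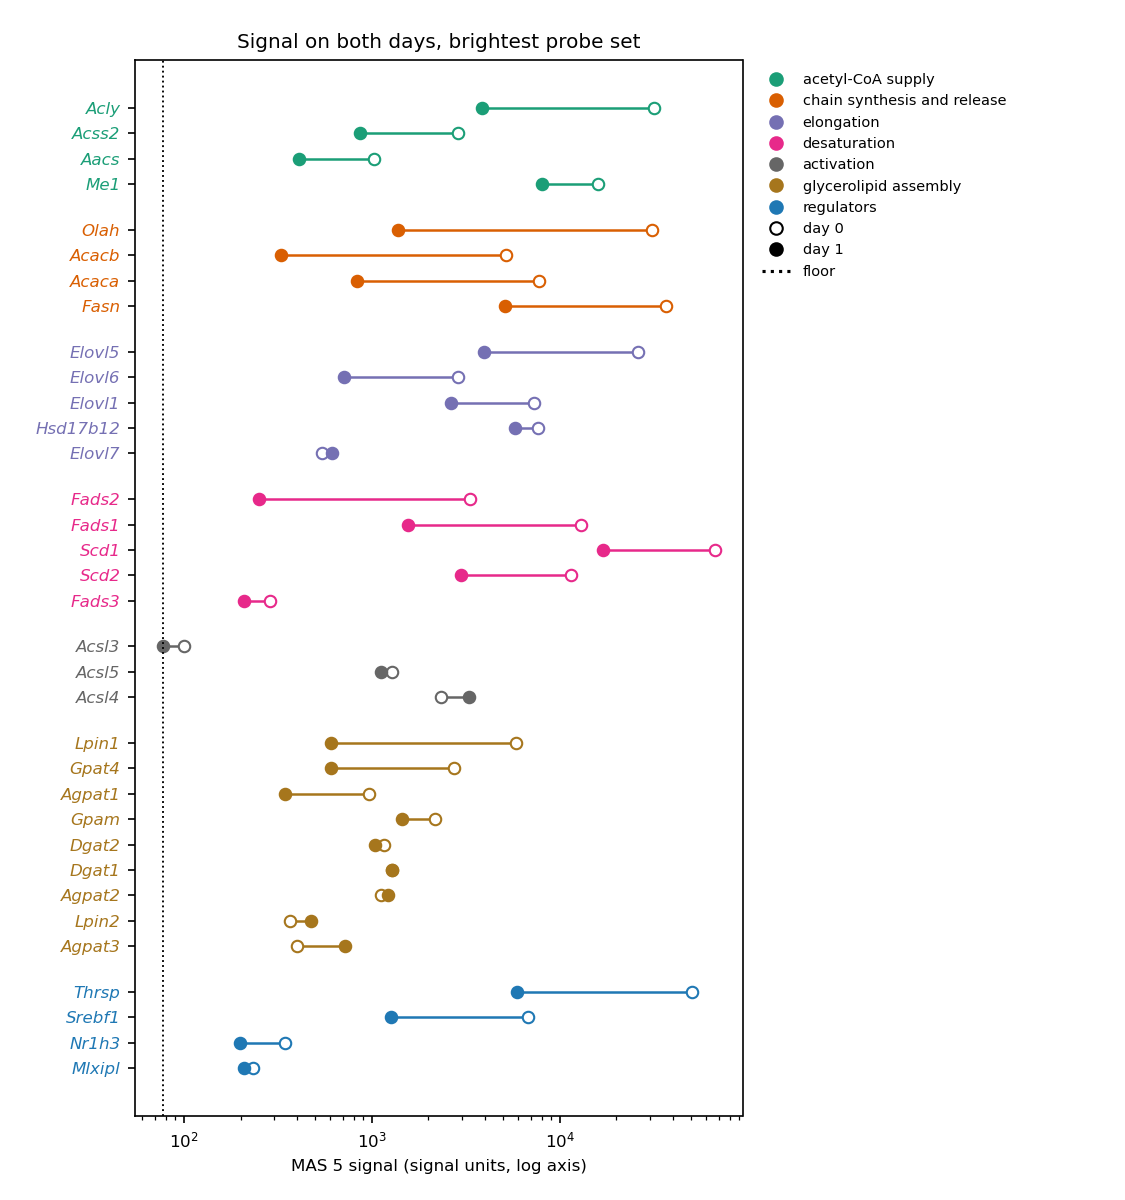
MAS 5 signal (x axis, log scale) on day 0 (open circles) and day 1 (filled circles) for the brightest probe set of each of the 34 genes, grouped by step, with the floor of 77.7 as a dotted line. Long bars run leftwards for Olah (30752.4 to 1374.2) and Acacb (5163.1 to 330.2), and short ones rightwards for Agpat3, Acsl4, Lpin2, Elovl7 and Agpat2.

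Elongation, in which chains are lengthened in the endoplasmic reticulum, gave 3 of 5 genes past 2-fold, each lower, and a median log2 ratio of -1.47. Elovl5, which lengthens polyunsaturated chains, went from 26048 to 3938.2, 6.61-fold lower, and to -3.00 log2 at its other probe set. Elovl6, which lengthens palmitate, went from 2858.1 to 708.5, 4.03-fold lower, with 3 probe sets from -2.01 to -1.56. Elovl1, which makes very-long-chain saturated fatty acids, went from 7281.8 to 2633.9, 2.76-fold lower. Its probe sets ranged from -2.04 to -1.41 and overlapped those of Elovl6, so of the 3 elongases Elovl5 alone lay apart.

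Hsd17b12, the ketoacyl-CoA reductase that serves all elongases, went from 7669.5 to 5752.5, 1.33-fold lower. Elovl7 had 544.8 and 615.1. Its probe sets above the floor ranged from -0.24 to 0.20 log2 and others gave bounds on both sides of 0, so no direction is given.

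Activation of fatty acids to acyl-CoA had no gene past 2-fold among the 3 measured, and a median log2 ratio of -0.19. Acsl4, an acyl-CoA synthetase that prefers arachidonic acid, had 2341.5 on day 0 and 3272.7 on day 1 (0.48 log2). All 3 of its probe sets were higher on day 1, and 1 of them, with 675.5 and 1637.1, was past 2-fold at 1.28. Acsl5 had 1281.7 and 1119.7. Acsl3 was close to the floor on both days, at 99.7 and 77, and gives only a bound of -0.36.

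Glycerolipid assembly was split within nearly every enzyme family. Of 9 genes, 3 were at least 2-fold lower and 0 higher, and the median log2 ratio of -0.14 was next to that of all measured genes. The first acylation of glycerol phosphate is carried out by Gpam at the mitochondria and Gpat4 at the endoplasmic reticulum. Gpat4 went from 2750.7 to 605.8, 4.54-fold lower, and Gpam from 2168.9 to 1454.5, 1.49-fold lower. For the next acylation, Agpat1 went from 965.6 to 346.8, 2.78-fold lower, with a lower ratio still at its other probe set (-1.75 log2). Agpat2, the form best known from adipose tissue, had 1112.2 and 1217.2. Agpat3 had 397.1 and 722.1, 1.82-fold higher, with all 3 measured probe sets higher on day 1.

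Lpin1, the phosphatidate phosphatase that yields diacylglycerol, went from 5854.7 to 608, 9.63-fold lower, with -3.07 log2 at its other probe set. Lpin2, which catalyses the same reaction, had 368.8 and 475.5, 1.29-fold higher. The final acylation to triglyceride showed no 2-fold difference. Dgat1 had 1278.2 and 1272.8 and Dgat2 1153.3 and 1043.5, although a dimmer Dgat1 probe set, the only one left without probe sets shared between transcripts, went from 201.3 to 81.4 (-1.31 log2).

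The differences between relatives do not depend on the scaling factor of an array. The log2 ratio of Lpin1 minus that of Lpin2 was -3.63. The difference was -1.61 for Gpat4 against Gpam, -1.61 for Agpat1 against Agpat2 and -2.34 for Agpat1 against Agpat3. In the chain-modifying steps it was -3.27 for Fads2 against Fads3 and -2.90 for Elovl5 against Elovl7. By contrast it was 0.14 for Dgat1 against Dgat2 and -0.75 for Acacb against Acaca. Each value is from the brightest probe sets, and those with Fads3, Elovl7 or Dgat1 depend on that choice, since the probe sets of these genes differ as described above. All of these differences but that of the Dgat pair exceed the pooled SD between probe sets of 1 gene (0.56 log2 over 3943 genes, 0.34 over 22 of the genes described here). That SD is the spread of a single ratio, and a difference between genes spreads wider. Acacb and Acaca are therefore not clearly told apart by it.

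Among the regulators, 2 of 4 were at least 2-fold lower, with a median log2 ratio of -1.61. Thrsp, the lipogenic protein Spot 14, went from 50789.9 to 5933.9, 8.56-fold lower, and from 26365.3 to 2291.4 at its next probe set (-3.52 log2). Srebf1 went from 6800.4 to 1269.9, 5.36-fold lower, at its only probe set, which does not tell the isoforms of SREBP-1 apart. Nr1h3, the liver X receptor alpha that can activate Srebf1, went from 344.5 to 198.8, 1.73-fold lower. Mlxipl, the glucose-responsive factor ChREBP, had 234.4 and 208.1. The log2 ratio of Srebf1 minus that of Mlxipl was -2.25.

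Most genes were read the same way by more than 1 probe set. Of 61 probe sets over the floor on both days, 52 were lower and 9 higher on day 1. The same count over all probe sets was not made. Counted by gene, 7505 of all 13239 measured genes were lower and 5732 higher. For 14 of the 19 genes at least 2-fold lower there were other such probe sets, 18 in all, and 17 of these were also at least 2-fold lower, the exception being that of Aacs. Measured probe sets lay on opposite sides of 0, by at least 0.5 log2, for Fads3 and Elovl7.

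Signal strength was given beside these values, since many of the genes are bright. Of 2276 measured genes with a mean signal of at least 1000, 12.7% were at least 2-fold lower and 15.9% higher, with a median log2 ratio of 0.12, and of the 25 synthesis genes in that range 17 were lower and 0 higher. At a mean signal of at least 10000 the share of lower genes was larger: 29.6% of 162 genes were at least 2-fold lower and 8.64% higher, with a median of -0.52. Of the 7 synthesis genes there, 6 were lower, and their median was -2.84. The range was set by the mean of both days, so a gene can enter it through day 0 alone. Olah did so, with 30752.4 on day 0 and 1374.2 on day 1. These counts are therefore not independent of the ratios and only describe the range. Both thresholds were chosen after the values were seen, and the part of signal strength in the ratios was not tested.

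**Figure D3:**
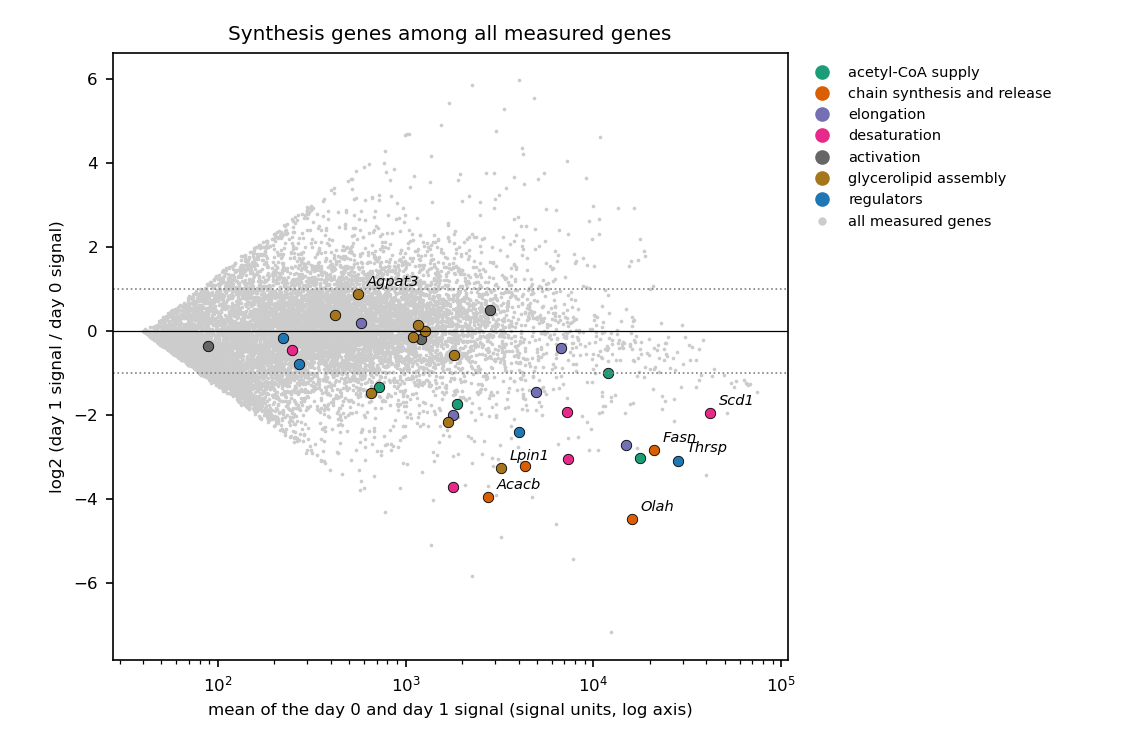
Log2 ratio of day 1 over day 0 (y axis) against the mean signal of both days (x axis, log scale) for 13239 measured genes in grey and the 34 synthesis genes in colour by step; dotted lines mark 2-fold. Olah, Fasn and Thrsp lie below most genes of like brightness, while the glycerolipid genes Agpat2, Dgat1 and Dgat2, near a signal of 1000, lie among them. Agpat1 and Gpat4, also of that step, lie past 2-fold lower.

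Of 44 other genes of the pathway, 37 were measured, with 6 at least 2-fold lower, 5 higher and a median log2 ratio of -0.012. These counts are near the shares of all measured genes (13.3% lower and 10.4% higher), so the values that follow are of single genes only. Lower on day 1 were Slc25a1, the carrier that exports citrate from mitochondria upstream of Acly (7829.8 to 2097.9, 3.73-fold), and Tecr, the enoyl reductase of the elongation cycle (11072.7 to 2885.6, 3.84-fold). Insig1, the endoplasmic reticulum protein that retains SREBP and is itself a known SREBP target, went from 5112.5 to 396.8, 12.9-fold lower. Bscl2, the lipid droplet protein seipin, was 2.29-fold lower, and Ppargc1b, a coactivator of SREBP, 2.15-fold. Scaled on the hybridisation controls, the ratios of Slc25a1 and Tecr were -0.74 and -0.78 and those of Bscl2 and Ppargc1b -0.029 and 0.059, all under 2-fold. Acsl6 went from 581.3 to 7.2, below the floor, and was at least 7.48-fold lower.

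In the other direction, Dbi, the acyl-CoA binding protein, went from 3629.7 to 17869, 4.92-fold higher, though its other 3 probe sets gave only 0.45 to 1.03 log2. Insig2 was 2.37-fold higher (442.7 to 1051.3), opposite to Insig1. Idh1, a cytosolic source of NADPH, was 2.67-fold higher (384.5 to 1026.9). Hacd3, a dehydratase of the elongation cycle, was 2.38-fold higher at its brightest probe set and 0.25 and 0.54 log2 at the others. Gpat3, a further glycerol phosphate acyltransferase, was below the floor on day 0 (63.8) and at least 2.89-fold higher (224.2). Srebf2 and Scap, the partner regulator and the escort protein of SREBP, had log2 ratios of -0.24 and -0.068. The other probe set of Srebf2 gave 0.46, so its direction is not settled.

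Milk secretion markers were lower on day 1, most luminal epithelial markers were higher, and most adipocyte markers were under 2-fold. Of 7 measured adipocyte markers, 0 were at least 2-fold lower and 1 higher, with a median log2 ratio of 0.22, and their summed signal was 19864.7 on day 0 and 22103.5 on day 1. Adipoq had 3613.5 and 3376.7, and Fabp4 12869 and 15038.2. All 7 milk secretion markers were at least 2-fold lower, from -1.72 to -1.19, and their summed signal was 491944 and 198562. Csn3 had 95983.8 and 40090.2, the latter the highest signal on the day 1 array. The day 0 signals of Csn1s1, Csn2, Csn3, Wap and Lalba were 70.3% to 88.4% of the highest, so their ratios and the sum may be compressed as well. Under hybridisation control scaling, described with the step order, these 7 had ratios of -0.56 to -0.026. Of 8 luminal epithelial markers, 6 were at least 2-fold higher and 1 lower, and their summed signal was 39444.8 and 84403.8; Krt8 went from 3178.5 to 23938.2 and Elf5, a factor of the secretory lineage, from 23257 to 11038.6, a ratio that turned to 0.088 log2 under that scaling.

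Of 6 macrophage markers, 3 were higher and 1 lower, with summed signals of 7970.8 and 32846.6, mostly Cd14. Of 6 myoepithelial and 5 fibroblast markers 0 were past 2-fold, and of 5 endothelial markers 1 was lower. Defining markers of the labelled tissue, the caseins and keratins, were thus present on both days. The part of a shift in cell types in the synthesis gene ratios was not tested.

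The order of the steps was read under 5 other scalings of the arrays. Relative to the median of all measured genes, chain synthesis and release stood at -3.47, desaturation at -1.85, regulators at -1.49, acetyl-CoA supply at -1.42, elongation at -1.35, activation at -0.077 and glycerolipid assembly at -0.026. The medians of acetyl-CoA supply, elongation and regulators (-1.54, -1.47 and -1.61) are close, and that of the regulators was -2.42 with a floor at the 75th percentile and -3.10 without shared probe sets, so no order is given among these 3. Between chain synthesis and glycerolipid assembly the medians differed by -3.45. After quantile normalization and after loess, the scalings that do not add about 1 constant to every ratio, 19 of the 34 genes lay at least 1 log2 unit below the median of all measured genes, the same number as in the deposited values. Scaling on the hybridisation controls raised the median of all measured genes by 1.10 to 0.98. With it 12 of 34 genes were at least 2-fold lower and 7 at least 2-fold higher, against 2.19% and 49% of all measured genes. The medians of activation (0.97) and glycerolipid assembly (1.02) were above 0. Those of the other 5 steps stayed below 0. Single ratios below 0 were 29 of 34 in the deposited values, 23 when the arrays were scaled on ribosomal protein genes and 19 when scaled on the hybridisation controls. The direction of genes under 2-fold, such as Me1, Gpam, Hsd17b12 and Nr1h3, thus turns with the scaling. In the same order, the median of all measured genes was -0.12, 0.27 and 0.98. Below that median lay 28, 27 and 26 of the 34.

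**Figure D4:**
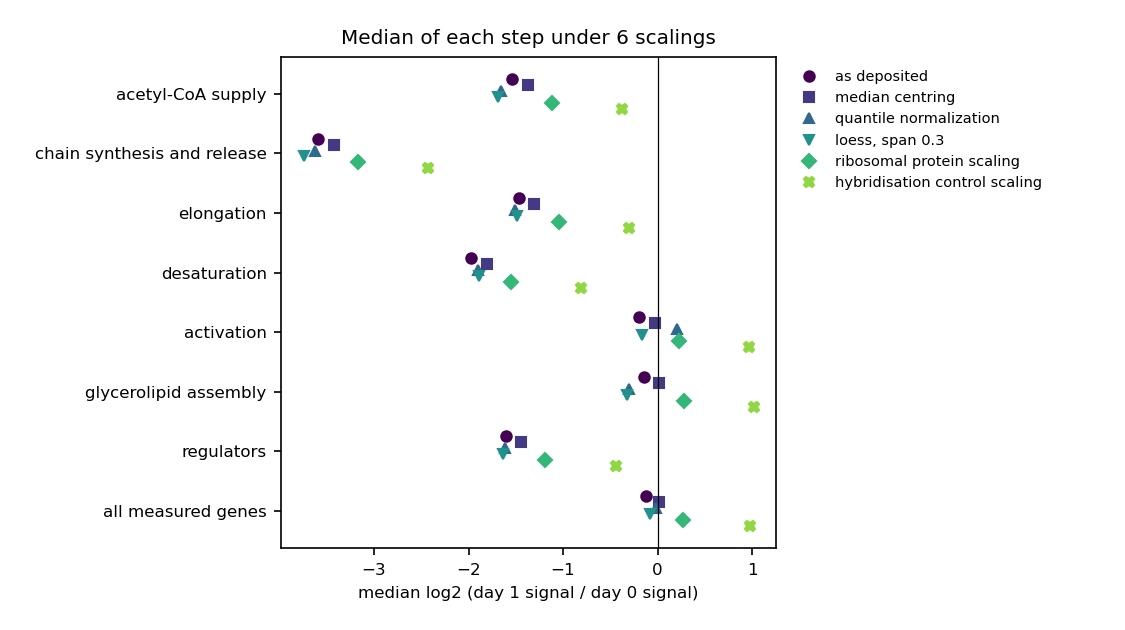
Median log2 ratio of day 1 over day 0 (x axis) of each step and of all measured genes, in the deposited values and under 5 other scalings (symbols). Chain synthesis and release is the lowest in each, from -3.74 to -2.43, while activation and glycerolipid assembly stay near the median of all measured genes.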

How the data were processed

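The authors' deposited values are MAS 5 signal intensities, 1 per probe set, made with the Affymetrix Microarray Suite 5.0 per the labels. Trimming 2% at each end gave both arrays a mean of 250, so each had been scaled by 1 factor, and a difference in RNA content or background stays in the ratios. Of 45101 probe sets, 64 controls, 932 with several symbols and 9160 unnamed ones were left out of gene values. Symbols of the other 34945 were updated by gene identifier through RefSeq (GRCm38.p6), where 34741 matched. No coordinate but those of RefSeq promoters is given. Median signals were 94.2 and 60.1, with 55.4% and 44.5% of probe sets above the floor. Every gene of the set is named; other pathway genes are named at 2-fold or more, and markers and regulators by choice. The members and lists were chosen with earlier results of these data known. Alternatives were 5 scalings (median, quantile, loess with a span of 0.3, ribosomal protein, hybridisation control), floors at the 25th and 75th percentile, a pseudocount of 16 without a floor, the mean or median of probe sets, leaving out shared probe sets, and 1.5-fold and 3-fold thresholds. Python 3.11.15, pandas 2.3.3 and statsmodels 0.14.6 were used, and the steps were tested on simulated data.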

Additional observations from a re-analysis of the deposited data

How the results depend on the processing

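The count of 19 genes at least 2-fold lower was 18 to 21 under every alternative but 2: it was 16 at a 3-fold threshold and 12 under hybridisation control scaling. Of all measured genes, 2.19% were at least 2-fold lower and 49% at least 2-fold higher under hybridisation control scaling. That scaling moved the other values too, since it adds about the same amount to each ratio: the count of genes at least 2-fold higher went from 0 to 7, the median of the genes to -0.31, and the step medians to -0.37 (acetyl-CoA supply), -2.43 (chain synthesis and release), -0.30 (elongation), -0.81 (desaturation), 0.97 (activation), 1.02 (glycerolipid assembly) and -0.44 (regulators). The count of higher genes was 1 after median centring, ribosomal protein scaling, without shared probe sets and at a 1.5-fold threshold; that gene was Agpat3. The median of the regulators was -2.42 with a floor at the 75th percentile and -3.10 without shared probe sets, because fewer of the 4 genes then had a value. Of 367 ratios of single genes over 11 alternatives, 322 moved by less than 0.56 log2, 45 moved by more and 0 that were past 2-fold changed sign. In every alternative that gave a value, 12 of the 19 genes stayed at least 2-fold lower. Aacs did so in 7 of 11. An equal count did not always hold the same genes. Without shared probe sets 29 genes had a value, among them 17 of the 19. All 17 were kept, with Me1 and Dgat1 added, while Elovl1 and Srebf1 had no value. With the mean or the median of probe sets 18 were kept, with Me1 added. Ratios of genes near the floor, such as Acsl3, are bounds. No paired analysis was possible because each day has 1 array.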
